A study of Saccharomyces cerevisiae with 8 samples.

Results

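The 10 genes described here make, store and break down the yeast's glucose reserves, trehalose and glycogen. They were taken by systematic name from a table of 11844 features: TPS1, TPS2, TPS3, TSL1, NTH1, GSY1, GSY2, GLC3, GPH1 and GDB1. Total RNA of Saccharomyces cerevisiae BY4741 was treated with Terminator, an exonuclease that digests RNA carrying a 5′ monophosphate and spares RNA with an intact cap, before stranded libraries were sequenced. The 4 groups of 2 biological replicates were wild type (WT) in DMSO, WT in cycloheximide (CHX), upf1 in DMSO and upf1 in CHX. CHX, a blocker of translation elongation, was given at 100 µg/ml for 15 min, and DMSO is its solvent. All 8 libraries came from cells that carried MATa his3Δ1 leu2Δ0 met15Δ0 ura3Δ0, grown in YPD at 30 °C to an OD600 of 0.5. The upf1 cells carried upf1*::kanMX4 in addition and lack Upf1, the helicase of nonsense-mediated decay. The labels name 1 strain per genotype. Libraries made without Terminator were not analysed here, so more of an RNA and a larger capped share of it cannot be told apart in any value below.

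Trehalose is built from UDP-glucose and glucose 6-phosphate by a complex of 4 proteins. Tps1 makes trehalose 6-phosphate, Tps2 removes the phosphate, and the paralogs Tps3 and Tsl1 are its regulatory subunits. Nth1, the neutral trehalase, splits trehalose back to glucose. Glycogen is extended by the synthase isoforms Gsy1 and Gsy2, branched by Glc3, shortened by the phosphorylase Gph1 and debranched by Gdb1. In yeast, both reserves build up when growth slows or stress sets in. Many of these genes are known targets of the stress activators Msn2 and Msn4, which bind the stress response element. Protein kinase A holds these activators back in growing cells.

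The stress response element nearest the start codon is printed for 9 of the genes because it is a sequence feature that the 10 genes share. It was searched as AGGGG and as its reverse complement CCCCT on both strands, and matches to these letters cannot overlap one another. The capitals mark the element. Each sequence is read 5′ to 3′ on the strand of the gene from the R64 genome of RefSeq, with 12 bases on either side.
TPS1 (chrII:490615-490643, minus strand): gcaggggctctcAGGGGggcgccatggac
TPS2 (chrIV:593573-593601, plus strand): gggtctgattatAGGGGttagttacgctc
TPS3 (chrXIII:793570-793598, minus strand): gaattaattaatCCCCTtcagcacgcagc
TSL1 (chrXIII:70447-70475, plus strand): ggggtagaaccaAGGGGctagcacactca
NTH1 (chrIV:452611-452639, minus strand): ctagaaattttcCCCCTatcgttttccgt
GSY1 (chrVI:176707-176735, minus strand): ccacaagtaataCCCCTtggaggattttt
GSY2 (chrXII:660508-660536, plus strand): gaacgcaattcaCCCCTttctttcttatg
GLC3 (chrV:132895-132923, plus strand): aagctttgtccaAGGGGctgttgcaacgg
GDB1 (chrXVI:901840-901868, plus strand): caacagcagcaaCCCCTtgaaatggccaa

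In the 600 bases before the start codon, a window chosen after seeing the data, all 10 genes held at least 1 such element, and 9 held 2 or more. Of 5999 protein-coding genes, 39.7% held at least 1 in a window of that length and 10.7% held 2 or more. TPS1 had 6 matches, TPS2 and TSL1 had 5 each, NTH1, GLC3 and GPH1 had 3 each, TPS3, GSY1 and GSY2 had 2 each, and GDB1 had 1. In the nearer 300 bases, the window planned first, 7 of the 10 genes held at least 1, against 22.2% of all genes, while TPS2, GSY1 and GPH1 held 0. The printed elements of TPS2 and GSY1 lie beyond it, at 308 and 332 bases. A match is a run of letters and does not show that a factor binds there.

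**Figure D1:**
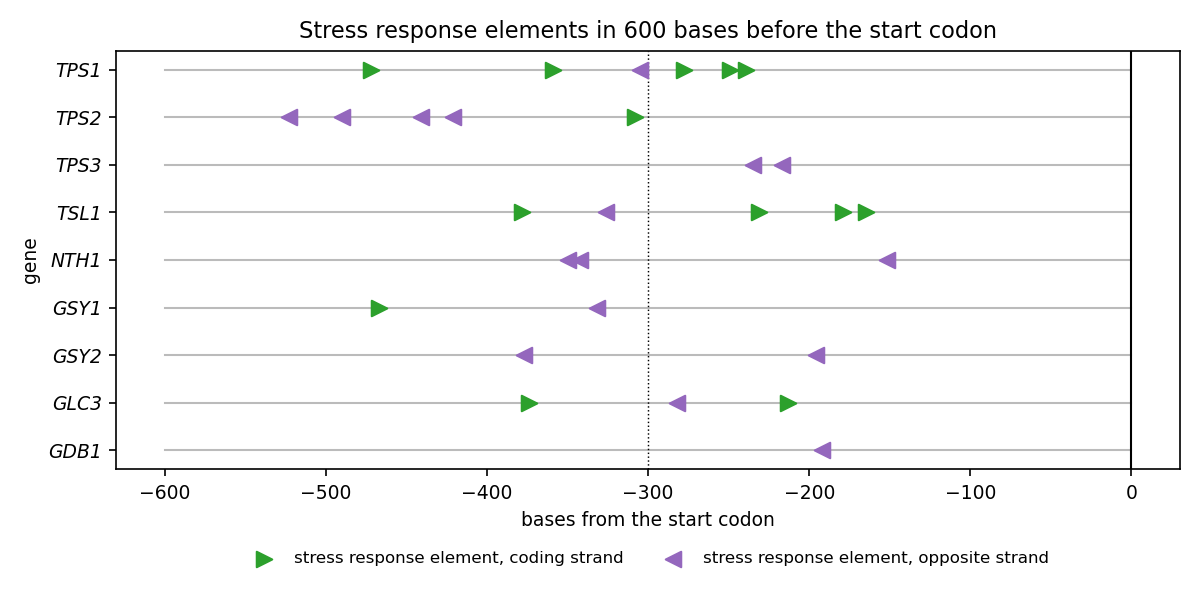
Matches to the stress response element before the start codon of 9 of the genes. The x axis is the distance in bases from the start codon at 0, each triangle is 1 match, its direction and colour give the strand, and the dotted line marks 300 bases. TPS1 has 6 matches and GDB1 has 1.

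The libraries held 1310994 to 5689067 reads on the listed features, as recovered from the deposited densities. The 10 genes together took 313 to 938 reads in the DMSO libraries and 2150 to 6670 in the CHX libraries. Single genes had 4 to 182 reads in the WT DMSO libraries, so their values there are the least precise. The MATa-specific genes STE2, STE6, BAR1, MFA1 and MFA2 had 45 to 8380 reads per library. Of the MATalpha-specific genes, STE3 had 0 to 84, MF(ALPHA)1 0 to 9 and MF(ALPHA)2 1 to 9. The unit of every level is the scaled read per kb, which is 1000 times the density that the authors deposited, with the values of the 2 libraries of a group in the order of their replicate numbers and the DMSO libraries written as without CHX. NAM7, the gene of Upf1, stood at 14.8 and 15.2 scaled reads per kb without CHX and 83.5 and 44.8 with CHX in WT, and 5.94 and 2.80 without and 13.5 and 10.1 with CHX in upf1. Each upf1 library thus lay below each WT library, with 10 to 66 reads of the gene left. HIS3, whose labelled allele is his3Δ1, had 19 to 503 reads, and the other labelled auxotrophic markers were not found among the listed features.

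TPS1 (YBR126C, R64 chromosome II, 488905 to 490392) was the most abundant of the 10 in all 4 groups. Its level was 80.1 and 70.2 scaled reads per kb without CHX and 510 and 334 with CHX in WT, and 118 and 72.7 without and 803 and 601 with CHX in upf1. Every CHX library stood above every DMSO library, and the upf1 CHX pair stood above the WT CHX pair. TSL1 (YML100W, chromosome XIII, 70624 to 73920) had 49.2 and 39.5 without CHX and 185 and 170 with CHX in WT, and 36.7 and 35.6 without and 354 and 269 with CHX in upf1. TPS2 (YDR074W, chromosome IV, 593893 to 596583) had 15.3 and 13.4, then 70.3 and 56.1, then 13.2 and 8.57, then 144.6 and 89.6, in the same order of groups. For TSL1 and TPS2 alike, the upf1 DMSO libraries were the lowest of the 8 and the upf1 CHX libraries the highest. TPS3 (YMR261C, chromosome XIII, 790205 to 793369) moved over a smaller range, with 31.1 and 24.9, then 83.1 and 73.3, then 32.3 and 31.4, then 126 and 108. No other RefSeq gene overlaps any of the 10, and each is coded in 1 exon.

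NTH1 (YDR001C, chromosome IV, 450220 to 452475), the trehalase gene, stood lower, at 7.26 and 2.58 scaled reads per kb in WT without CHX and 12.7 and 10.7 with CHX. In upf1 it had 10.03 and 9.98 in DMSO, and 49.7 and 28.2 in CHX. The WT DMSO values came from 20 and 4 reads, and the upf1 CHX values lay above all others.

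GSY2 (YLR258W, chromosome XII, 660716 to 662833), the main glycogen synthase gene, had 30.5 and 23.8 scaled reads per kb without CHX and 123 and 95.8 with CHX in WT, and 45.97 and 31.8 without and 239 and 202 with CHX in upf1. GSY1 (YFR015C, chromosome VI, 174265 to 176391), the second isoform, had 4.74 and 4.21, then 26.02 and 20.6, then 8.53 and 5.63, then 51.8 and 37.0. Both isoforms had the order WT DMSO, upf1 DMSO, WT CHX and upf1 CHX with no overlap between neighbouring groups. GLC3 (YEL011W, chromosome V, 133120 to 135234), the branching enzyme gene, had 2.52 and 5.98 without CHX and 13.6 and 10.7 with CHX in WT, and 10.9 and 7.71 without and 30.4 and 19.6 with CHX in upf1. For GLC3 the WT CHX and upf1 DMSO libraries overlapped.

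GPH1 (YPR160W, chromosome XVI, 861306 to 864014), the phosphorylase gene, was among the 3 lowest of the 10 in every group. It had 5.76 and 3.99 scaled reads per kb without CHX and 13.2 and 8.13 with CHX in WT, and 5.53 and 3.26 without and 26.3 and 16.4 with CHX in upf1. GDB1 (YPR184W, chromosome XVI, 902044 to 906654), the debranching enzyme gene, had 9.84 and 7.14, then 22.1 and 20.8, then 15.1 and 11.1, then 34.3 and 20.3. GDB1 was the gene whose upf1 CHX libraries did not both exceed the WT CHX libraries.

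**Figure D2:**
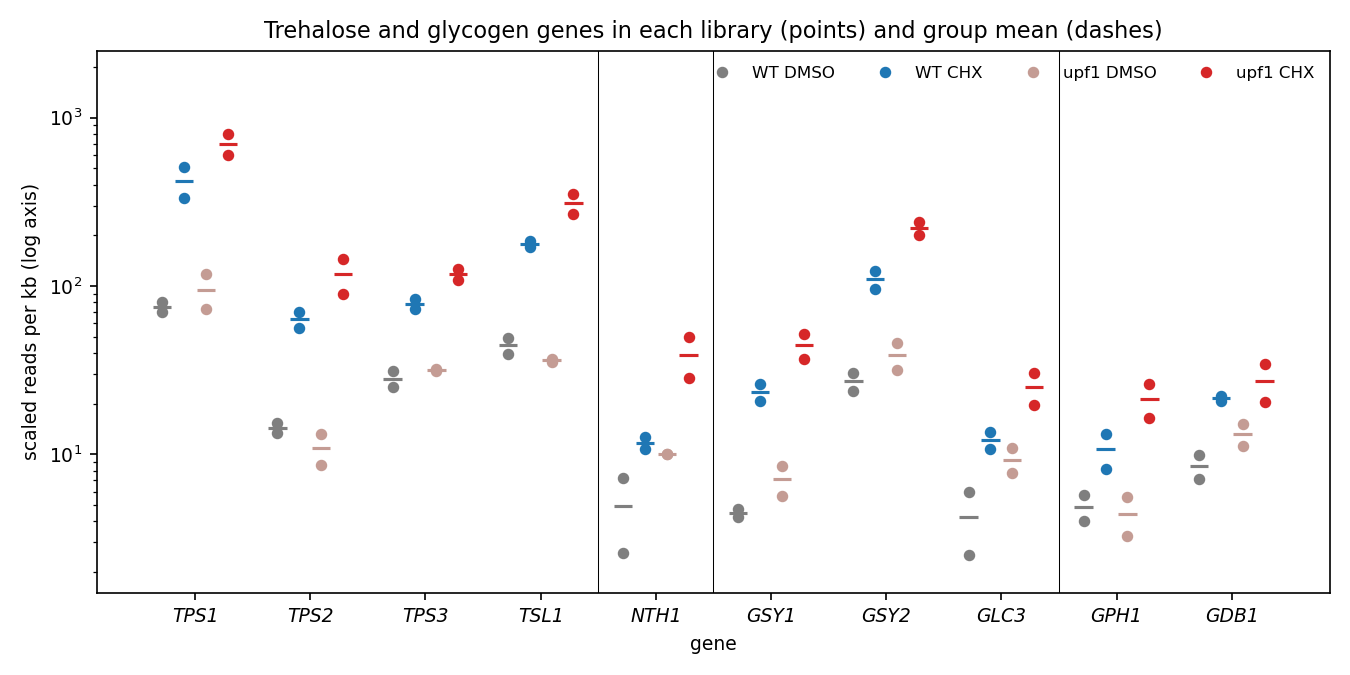
Level of each of the 10 genes in scaled reads per kb on a log axis, with a point for each library and a dash for the mean of a group of 2. Vertical lines part trehalose synthesis, trehalose breakdown, glycogen synthesis and glycogen breakdown. TPS1 is highest in every group, and each CHX pair lies above the DMSO pair of the same genotype for all 10 genes.

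In WT DMSO the order of mean levels was TPS1, TSL1, TPS3, GSY2, TPS2, GDB1, NTH1, GPH1, GSY1 and GLC3. TPS3 and GSY2 overlapped between libraries, as did each neighbouring pair from GDB1 downward. TPS1 stood above 86.2% of protein-coding genes without CHX and 91.5% with CHX in WT, and above 84.8% and 93.5% in upf1. GSY1 went from the ninth place to the sixth among the 10 on CHX in both genotypes, and GDB1 went from the sixth to the seventh in WT and from the fifth to the eighth in upf1. The neighbours of GSY1 and GDB1 overlapped in several of these places, so the exact place is not resolved.

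CHX against DMSO in WT asks which of these RNAs stood higher in the capped fraction once elongation was blocked. The synthesis genes TPS1, TPS2, TSL1, GSY1 and GSY2 rose by 4.01-fold to 5.62-fold in mean level. The other synthesis genes, TPS3 and GLC3, rose by 2.79-fold and 2.85-fold, and the means of the breakdown genes NTH1, GPH1 and GDB1 stood 2.38-fold, 2.19-fold and 2.53-fold higher. These folds carry no pseudocount, whereas the log2 changes below do. By limma on log2 of the level plus 2 scaled reads per kb, 9 of the 10 genes rose at an adjusted p under 0.05. Of all 10392 features tested, 69.8% rose and 0.106% fell in that comparison, so the count itself is no result about these genes. Protein-coding genes had a median log2 change of 1.23, and the 10 genes had a median of 1.68. Over all features tested the median was 1.42. All 10 genes had both CHX libraries above both DMSO libraries, as had 85.5% of the features, while 0.953% had both below.

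TPS1 rose most in WT, by 2.43 ± 0.308 on the log2 scale (estimate ± SE, limma adjusted p = 0.00088), which is 1.20 above the protein-coding median. TPS2, GSY1, TSL1 and GSY2 rose by 1.99 ± 0.319, 1.96 ± 0.305, 1.96 ± 0.225 and 1.93 ± 0.268 (limma adjusted p = 0.00181, 0.00166, 0.000688 and 0.00114). These 4 changes lie 0.70 to 0.76 above the protein-coding median. TPS3 rose by 1.42 ± 0.225 (limma adjusted p = 0.00171), 0.19 above that median. GLC3, GDB1 and NTH1 rose by 1.23 ± 0.383, 1.17 ± 0.327 and 1.07 ± 0.412 (limma adjusted p = 0.0228, 0.0147 and 0.048), at -0.01, -0.06 and -0.16 from the median. GPH1 had a change of 0.87 ± 0.378 that did not pass (limma adjusted p = 0.0708). The order of GLC3 and TPS3 depended on the added 2. By voom on recovered reads GLC3 rose by 1.64 ± 0.482 and TPS3 by 1.46 ± 0.242, against a protein-coding median of 1.41. By voom NTH1, GDB1 and GPH1 stayed below that median, at 1.21, 1.31 and 0.97. The NTH1 call ended without WT DMSO replicate 2, the library with 4 reads of the gene, where its change was 0.56 (limma adjusted p = 0.24), and in 6 of the other 7 settings that leave out a library. The GLC3 call ended without WT DMSO replicate 1 or either WT CHX library. That of GDB1 ended without the second DMSO or the first CHX library of WT.

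With each library set to a common median over protein-coding genes, 1 of the 10 genes was called higher on CHX in WT, against 7.06% of the features higher and 3.23% lower. That gene was TPS1, at 1.12 ± 0.231 (limma adjusted p = 0.0257). Under this scaling NTH1, GLC3, GPH1 and GDB1 turned to -0.24, -0.082, -0.44 and -0.13, none of them called.

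In upf1 cells, TPS1, TPS2 and TSL1 had the largest CHX changes of the 10, and GDB1 the smallest. All 10 rose on CHX by limma, where 64.1% of the features rose and 0.154% fell, and all 10 had CHX libraries above DMSO libraries, where 86.7% of the features had and 0.972% had the reverse. Their median log2 change was 2.11, against 1.25 for protein-coding genes and 1.22 over all features tested. TPS2 rose from a mean of 10.9 ± 3.30 (SD, n = 2) to 117 ± 38.9 scaled reads per kb, 10.7-fold, TSL1 from 36.1 ± 0.801 to 311 ± 60.2, 8.61-fold, and TPS1 from 95.1 ± 31.7 to 702 ± 143, 7.39-fold. Relative to the protein-coding median these 3 genes moved by 1.95, 1.78 and 1.64 on the log2 scale. GSY2 and GSY1 rose by 2.46 ± 0.268 and 2.35 ± 0.305 (limma adjusted p = 0.00173 and 0.00249). GPH1, TPS3 and NTH1 rose by 1.86 ± 0.378, 1.81 ± 0.225 and 1.72 ± 0.412 (limma adjusted p = 0.00699, 0.00229 and 0.0112). GLC3 and GDB1 rose by 1.24 ± 0.383 and 0.92 ± 0.327 (limma adjusted p = 0.0251 and 0.0394), the latter 0.32 below the protein-coding median.

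With median scaling, 4 of the 10 genes were called higher on CHX in upf1, against 1.3% of the features higher and 1.89% lower. They were TPS2, TSL1, TPS1 and GSY2, at 1.82 ± 0.271, 1.66 ± 0.24, 1.52 ± 0.231 and 1.09 ± 0.227 (limma adjusted p = 0.0170, 0.0160, 0.0187 and 0.0491). GLC3 and GDB1 turned to -0.12 and -0.44 under this scaling. Without median scaling, TPS1, TPS2, TPS3, TSL1, GSY1 and GSY2 passed on CHX in both genotypes whichever library was left out. Leaving out upf1 CHX replicate 1 ended the calls of NTH1, GLC3, GPH1 and GDB1, so that 6 genes were called. The GDB1 call also ended without either WT CHX library or either upf1 DMSO library, and those of NTH1 and GLC3 without upf1 DMSO replicate 2.

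**Figure D3:**
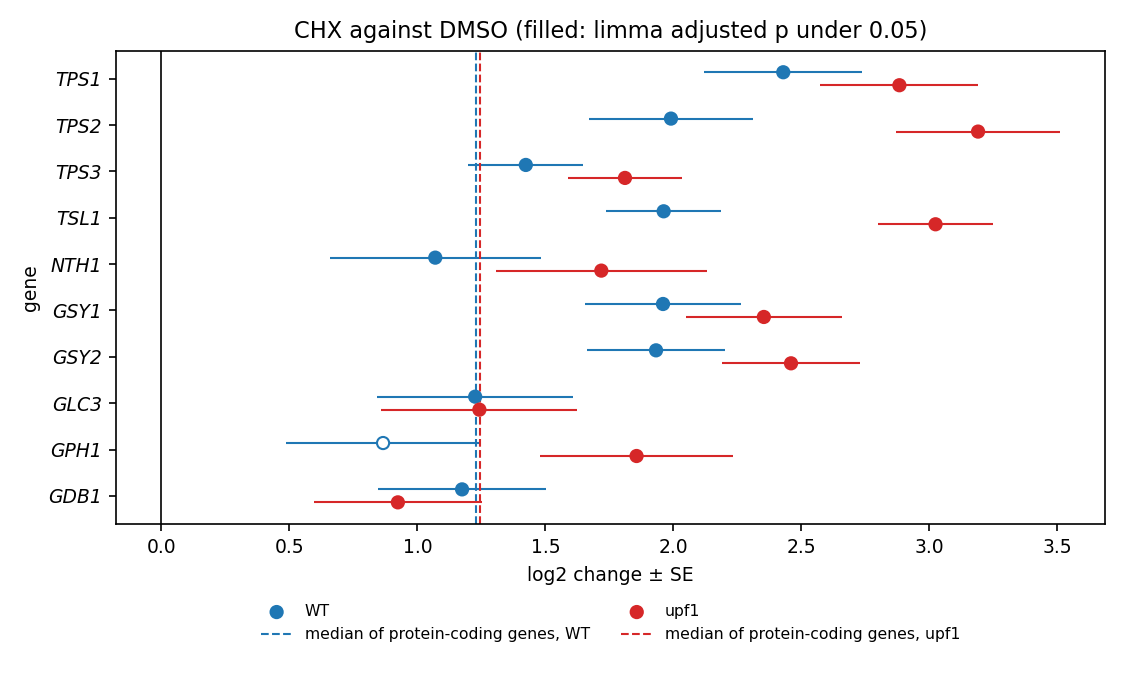
Change of each gene on CHX in WT and in upf1 on the log2 scale, with its SE, relative to 0 (black line) and to the protein-coding median of 1.23 in WT and 1.25 in upf1 (dashed lines). Filled points passed limma's adjusted threshold of 0.05. The changes of TPS1, TPS2, TPS3, TSL1, GSY1 and GSY2 lie to the right of both medians, those of GDB1 to the left and those of GLC3 almost on them.

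Ratios between 2 genes of the same library do not depend on the library factors. TSL1 stood to its paralog TPS3 at 1.58 and 1.58 without CHX and 2.23 and 2.32 with CHX in WT, and 1.14 and 1.13 without and 2.80 and 2.49 with CHX in upf1. The replicates of each group lay close together, and the 4 groups did not overlap. The exact 95% counting intervals were 1.25 to 2.02 and 1.10 to 2.29 in WT DMSO, and 0.897 to 1.44 and 0.873 to 1.47 in upf1 DMSO, so these groups overlap within counting error. In CHX the intervals ran from 1.91 to 2.61 and from 2.06 to 2.63 in WT, and from 2.41 to 3.26 and from 2.28 to 2.72 in upf1. The balance of the 2 regulatory subunit transcripts thus stood further towards TSL1 in each CHX library than in each DMSO library of the same genotype. In WT the intervals of the DMSO and CHX libraries overlap in part, and in upf1 they do not. The ratios are given as a description with no test. The coding sequences of TPS3 and TSL1 share 67.2% of aligned bases and no run longer than 15 bases.

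GSY2 stood to GSY1 at 6.44 and 5.66 without CHX and 4.73 and 4.65 with CHX in WT, and 5.39 and 5.66 without and 4.61 and 5.46 with CHX in upf1. All 8 counting intervals overlap, with bounds from 2.36 to 16.4, so a shift between the isoforms was not detectable at this depth. The coding sequences of the isoforms share 73.2% of aligned bases and no run longer than 20 bases. GSY2 stood to the debranching gene GDB1 at 3.10 and 3.34 in WT without CHX and 5.56 and 4.60 with CHX. In upf1 that ratio was 3.04 and 2.86 in DMSO and 6.97 and 9.93 in CHX, so each CHX library lay above each DMSO library. GSY2 to GPH1 was 5.30 and 5.98 in WT DMSO and 9.30 and 11.8 with CHX, while in upf1 the groups overlapped, at 8.31 and 9.76 in DMSO and 9.08 and 12.4 with CHX. In WT the counting intervals of DMSO and CHX libraries overlap for GSY2 to GDB1 and for GSY2 to GPH1. For GSY2 to GPH1 they were 3.15 to 9.37 and 2.62 to 15.9 in WT DMSO. With CHX they were 6.42 to 13.9 and 8.36 to 17.1. In upf1 those of GSY2 to GDB1 do not overlap between DMSO and CHX. Summed by role, glycogen synthesis genes stood to glycogen breakdown genes at 2.42 and 3.06 without CHX and 4.60 and 4.39 with CHX in WT, and 3.17 and 3.14 without and 5.30 and 7.05 with CHX in upf1. TPS1 stood to NTH1 at 11.03 and 27.2 without CHX and 40.3 and 31.1 with CHX in WT, and at 11.7 and 7.28 without and 16.2 and 21.3 with CHX in upf1. The 4 reads of NTH1 in the second WT DMSO library leave that ratio imprecise.

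**Figure D4:**
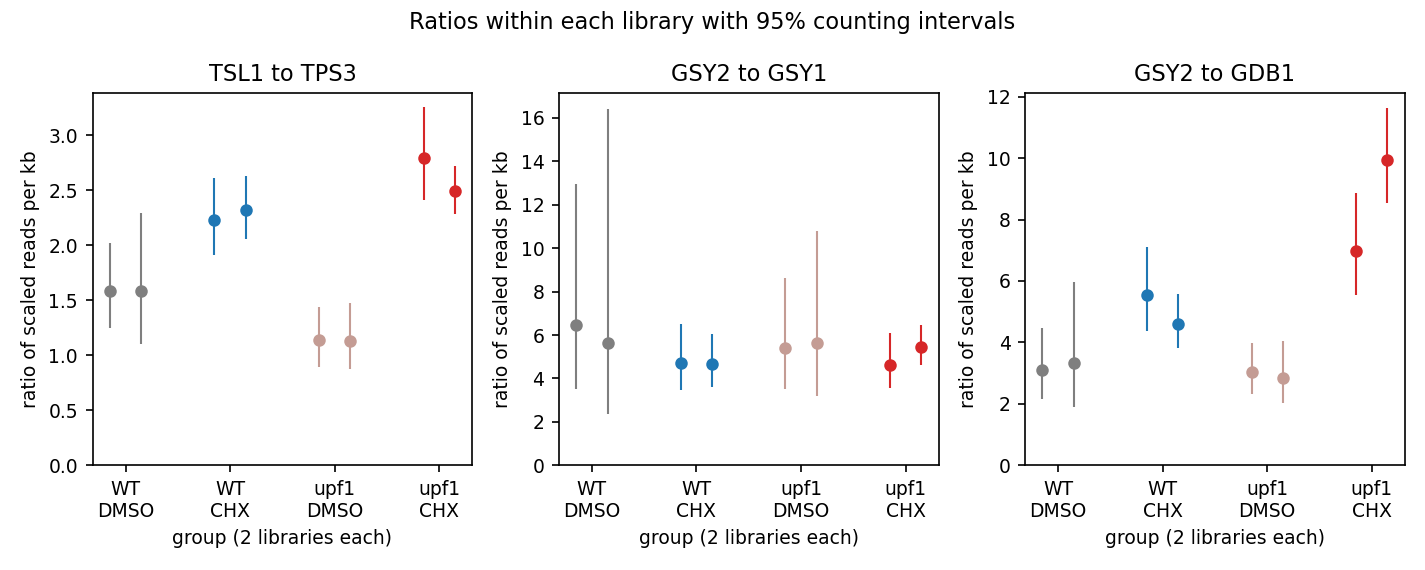
Ratio of scaled reads per kb of 2 genes within each library, with exact 95% intervals that cover counting error only. TSL1 to TPS3 lies between 1.13 and 1.58 in DMSO and between 2.23 and 2.80 in CHX, GSY2 to GSY1 stays between 4.61 and 6.44, and GSY2 to GDB1 is highest in upf1 CHX.

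As a share of protein-coding reads, which is also free of the library factors, the 10 genes took 0.0538% and 0.0446% in WT without CHX and 0.113% and 0.0989% with CHX. In upf1 they took 0.0540% and 0.0499% in DMSO and 0.196% and 0.164% in CHX. The DMSO groups overlapped in this share, and both upf1 CHX libraries stood above both WT CHX libraries. This share follows the most abundant genes, as TPS1 and TSL1 held 720 and 530 of the 2150 reads in WT CHX replicate 1. On CHX in WT the limma changes of NTH1, GPH1 and GDB1 lay below the protein-coding median and that of GLC3 at it.

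upf1 against WT in DMSO asks whether loss of Upf1 alone moved these RNAs. By limma 0 of the 10 genes were called in either direction, while 14.7% of the features were higher and 0.395% lower. At an unadjusted p under 0.05 there was 1 of the 10, GLC3, with 6 and 8 reads in WT DMSO, where 31.3% of the features had one. voom on recovered reads called 0 of the 10, and of the features 14% higher and 0.327% lower. Their median log2 change was 0.38, against 0.51 for protein-coding genes and 0.54 over all features tested. GLC3 and NTH1 had changes of 0.90 ± 0.383 and 0.88 ± 0.412 (limma adjusted p = 0.157 and 0.189). TPS2 and TSL1 had changes of -0.36 ± 0.319 and -0.27 ± 0.225 (limma adjusted p = 0.467 and 0.435), at -0.87 and -0.78 from the protein-coding median. Both had their upf1 DMSO libraries below their WT DMSO libraries, which was so for 4.23% of the features, while 6 of the 10 genes had them above, which was so for 52.7%. For TPS2 the nearest of these libraries were almost level, at 13.2 in upf1 and 13.4 scaled reads per kb in WT. Set against the median protein-coding gene of the same library, TSL1 stood at 6.40 and 4.31 times that level in WT DMSO and at 2.30 and 2.88 times in upf1 DMSO. For TPS2 these multiples were 1.99 and 1.46 in WT DMSO, and 0.828 and 0.695 in upf1 DMSO. With median scaling TSL1 and TPS2 stood at -0.90 ± 0.24 and -0.99 ± 0.271 (limma adjusted p = 0.0839 and 0.0911), and 0 of the 10 were called, against 2.69% of the features higher and 0.924% lower. TPS1, TPS3, GSY1, GSY2 and GDB1 turned from positive to negative under this scaling, with changes from -0.45 to -0.10.

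Under CHX, upf1 against WT gave 0 of 10 calls by limma in either direction, where 0.0481% of the features were higher and 0.0385% lower. There were 8 of the 10 with an unadjusted p under 0.05, as had 23.6% of the features. voom on recovered reads called 3 higher, namely NTH1, GSY2 and TSL1, where it called 11.5% of the features higher and 0.645% lower. NTH1 had the largest change of the 10, 1.53 ± 0.412 (limma adjusted p = 0.131), followed by GSY2 at 1.00 ± 0.268 (limma adjusted p = 0.131). The median change was 0.85, against 0.58 for protein-coding genes and 0.43 over all features tested, and 9 of the 10 genes had both upf1 CHX libraries above both WT CHX libraries, as had 51.9% of the features, while 9.98% had both below. GDB1 was the exception, with a change of 0.28 ± 0.327 (limma adjusted p = 0.604). With median scaling 0 of the 10 were called, against 0.0192% of the features higher and 0.212% lower, and TPS3 and GDB1 turned to -0.12 and -0.41.

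**Figure D5:**
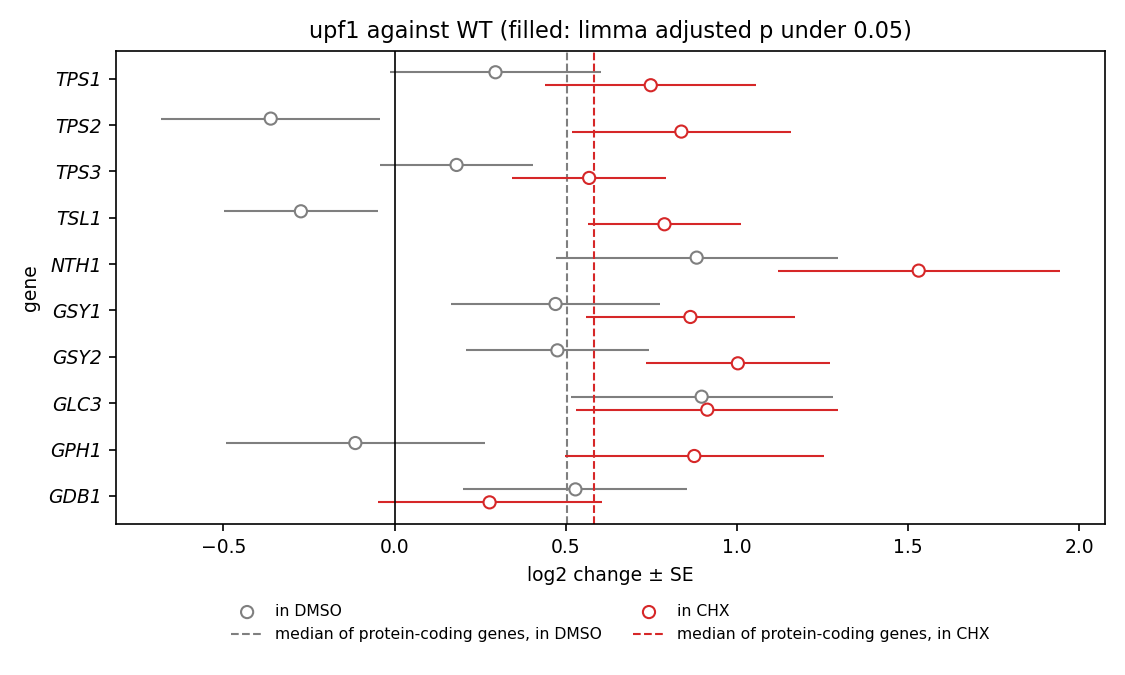
Change of each gene from WT to upf1, once for each treatment, on the log2 scale with its SE. Dashed lines mark the protein-coding medians of 0.51 in DMSO and 0.58 in CHX, and open points did not pass limma's adjusted threshold of 0.05. TPS2, TSL1 and GPH1 lie below 0 in DMSO and above 0 in CHX.

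Whether the CHX change differed between genotypes was tested as an interaction. By limma 0 of the 10 genes were called, as were 0% of the features in either direction, and voom on recovered reads called 0 of the 10, with 0% of the features higher and 0.00962% lower. TPS2 and TSL1 had interactions of 1.20 ± 0.452 and 1.06 ± 0.318 (limma unadjusted p = 0.0303 and 0.011, adjusted p = 0.494 and 0.383), and 2 of the 10 genes had an unadjusted p under 0.05, as had 9.08% of the features. A difference of the CHX change between genotypes was therefore not resolved for any of the 10.

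The wider pathway was followed in lists written with earlier results of these data known. Of 13 further trehalose and glycogen genes, 11 rose on CHX in WT, where 69.8% of the features rose. Their median log2 change was 1.27, close to the protein-coding 1.23. UGP1, which makes the UDP-glucose that both pathways use, stood at 155 and 146 scaled reads per kb in WT without CHX and 565 and 441 with it, a rise of 1.72 ± 0.223 (limma adjusted p = 0.000947). GLG1, a glycogenin that primes glycogen, rose by 1.69 ± 0.303 (limma adjusted p = 0.00273) from 7 and 3 reads. In upf1 against WT in DMSO, 2 of the 13 were higher and 1 lower, where 14.7% of the features were higher and 0.395% lower. MAL11, an alpha-glucoside transporter that also takes up trehalose, had 1.28 and 0.757 in WT DMSO and 9.92 and 6.94 in upf1 DMSO, a rise of 1.78 ± 0.315 (limma adjusted p = 0.013) from 3 and 1 reads. GLG1 rose by 1.55 ± 0.303 there (limma adjusted p = 0.0182). The gene that fell was GLK1, the glucokinase, from 699.8 and 471 to 354 and 270.07 scaled reads per kb, by 0.89 on the log2 scale (limma adjusted p = 0.0492), and it was chosen after its values were seen.

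Among 13 tested phosphatase and kinase regulators of glycogen, 7 rose on CHX in WT, where 69.8% of the features rose. Their median change was 1.25, close to the protein-coding 1.23, and a 14th gene, GIP2, lay under the filter. PCL7, a cyclin of the Pho85 kinase, rose by 2.82 ± 0.28 (limma adjusted p = 0.000501), from 3 and 2 reads to 36 and 50. PHO85 itself rose by 1.89 ± 0.229 (limma adjusted p = 0.000766). In upf1 against WT in DMSO 2 of the 13 were higher, as were 14.7% of the features. They were PCL7, by 1.04 ± 0.28, and IGD1, an inhibitor of Gdb1, by 1.11 ± 0.30 (limma adjusted p = 0.0467 and 0.0471). IGD1 stood at 10.9 and 15.1 scaled reads per kb without CHX and 81.7 and 58.3 with CHX in WT, and 34.7 and 26.0 without and 157 and 115 with CHX in upf1, so its 4 groups did not overlap.

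Of 14 genes of protein kinase A, Snf1 and the stress regulators, 11 rose on CHX in WT at a median of 1.44. All 14 rose in upf1 at a median of 1.62. Of the features tested, 69.8% rose in WT and 64.1% in upf1, and the medians over all of them were 1.42 and 1.22. BCY1, the regulatory subunit that restrains protein kinase A, and PDE2, a cyclic AMP phosphodiesterase, rose in WT by 1.90 ± 0.266 and 1.61 ± 0.265 (limma adjusted p = 0.00116 and 0.00195). In upf1 against WT in DMSO 0 of the 14 were called by limma, where 14.7% of the features were higher and 0.395% lower. DCS1 and DCS2, the decapping scavenger and its homolog, had the smallest p of the 14. Their changes were 0.96 ± 0.432 and 0.81 ± 0.376 (limma adjusted p = 0.176 and 0.188). Of 20 other Msn2 and Msn4 target genes, 17 rose on CHX in WT at a median of 1.94 and 15 in upf1 at a median of 1.66. These counts stand beside the same 69.8% and 64.1% of the features. SOL4, a 6-phosphogluconolactonase, and TKL2, a transketolase, rose in WT by 2.52 ± 0.337 and 1.97 ± 0.276 (limma adjusted p = 0.001 and 0.00116). In upf1 against WT in DMSO 5 of the 20 were higher, as were 14.7% of the features. RTN2, a reticulon, and MSC1 led the 5, at 1.91 ± 0.346 and 1.57 ± 0.306 (limma adjusted p = 0.0142 and 0.0179).

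The profile most like the mean of the 10 genes was sought among 5517 other protein-coding genes, as the mean absolute difference of centred log2 values over the 8 libraries. The 5 nearest were GYP1, SIP4, CDC4, UGP1 and LAG2, at distances of 0.0861, 0.0997, 0.106, 0.11 and 0.115. Gene by gene, the nearest were YHP1 to TPS1 (0.136), PHM8 to TPS2 (0.149), NTE1 to TPS3 (0.0659), BDH2 to TSL1 (0.135) and CUS2 to NTH1 (0.142). For the glycogen genes they were PPZ2 to GSY1 (0.0824), DSE4 to GSY2 (0.105), YPT1 to GLC3 (0.102), YOS1 to GPH1 (0.116) and ALP1 to GDB1 (0.0782). The nearest genes of the 10 were thus 10 different genes.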

How the data were processed

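Stranded total RNA-seq of Terminator-digested RNA (1.5 µg with 3 µl ERCC mix, 1 unit, 1 h at 30 °C, per the labels' protocols) was available for 8 libraries. The authors deposited normalized signal densities per feature. The submitters' processing notes give no roles or order and list the build R64 and, as tools, featureCounts 2.0.0, DESeq2, HISAT2 2.2.0 and Trim Galore. Library factors and lengths were not given in the sources used here. Whole reads and lengths were recovered, with 100.0% of positive values whole within 0.001 reads. As a check, 500 features with reads in all 8 libraries had their values altered at random by 3%, and 0 of them could then be resolved into whole reads. Features without reads in some library were not checked in this way. All 10 genes had reads in every library. The recovered lengths of the 10 genes exceed their coding lengths. The test covered the 10392 features, 5527 of them protein-coding, whose mean level over the libraries reached 2 scaled reads per kb. All 10 genes passed this filter. limma 3.58.1 in R 4.3.3 was fitted to log2 of the level plus 2 (the 10th percentile of the positive values), all 8 libraries together, with a variance trend, 4 residual and 3.60 prior degrees of freedom. The added 2 understates changes of low genes. All p-values are two-sided, and the Benjamini-Hochberg method adjusted them across every tested feature. Ribosomal RNA was left out. Each median reported for protein-coding genes is that of the tested ones. Alternatives were another pseudocount, filter, scaling, a replicate block, voom and leaving out each library. Genes named outside the 10 were the 2 of smallest p in each list on CHX in WT and in upf1 against WT in DMSO, and the nearest profiles, with GLK1 added after its values were seen. The members, lists and rules were chosen with earlier results of these data known. Sequences come from RefSeq R64, searched in Biopython 1.88. Intervals cover counting error only. The labels do not say whether replicates were separate cultures, beyond calling them biological. The upstream sequence of GPH1 is not reported here.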

Additional observations from a re-analysis of the deposited data

Results flagged for a closer look

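TPS2 and TSL1 drew attention because both upf1 libraries lay below both WT libraries in DMSO and above both in CHX. For TPS2 in DMSO the nearest libraries were almost level. They were upf1 replicate 1 at 13.2 and WT replicate 2 at 13.4 scaled reads per kb, from 51 and 25 reads. For TPS2 the upf1 change in CHX less that in DMSO was 1.20 on the log2 scale (SE 0.452, limma unadjusted p = 0.0303, adjusted p = 0.494). For TSL1 it was 1.06 (SE 0.318, limma unadjusted p = 0.011, adjusted p = 0.383). Neither passed the adjusted threshold, so the difference between the conditions was not resolved.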

How the results depend on the processing

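Over all alternatives and single genes, 714 values kept direction and side of the threshold, 43 lost their call, 4 gained one and 39 changed sign. Median scaling and quantile normalization left 1 gene each called higher on CHX in WT, in place of 9, and 4 each in upf1, in place of 10. Leaving out a library gave 6 to 8 calls in WT and 6 to 10 in upf1. voom on recovered reads called 3 genes higher in upf1 against WT in CHX, in place of 0, while its share of all features called higher was 11.5%, in place of 0.0481%. Under median scaling, then quantile normalization, signs reversed on CHX in WT for NTH1 (-0.24, -0.55), GLC3 (-0.082, -0.32), GPH1 (-0.44, -0.74), GDB1 (-0.13, -0.37) and, by quantiles alone, TPS3 (-0.028). On CHX in upf1 they reversed for GLC3 (-0.12, -0.034) and GDB1 (-0.44, -0.36). In upf1 against WT in DMSO they reversed for TPS1 (-0.33, -0.14), TPS3 (-0.45, -0.40), GSY1 (-0.16, -0.24), GSY2 (-0.15, -0.087) and GDB1 (-0.10, -0.17). In CHX they reversed for GDB1 (-0.41, -0.15) and, by medians alone, TPS3 (-0.12). The interaction of GLC3 reversed with a pseudocount of 0.5 (-0.14), median scaling (-0.042) and voom (-0.34), and that of GDB1 by quantiles (0.013). Leaving out a library took TPS1 from -0.0446 to 0.63 and GPH1 from -0.37 to 0.14 in upf1 against WT in DMSO, and GDB1 from -0.072 to 0.63 in CHX. It took the interaction of GLC3 from -0.39 to 0.43 and that of GDB1 from -0.60 to 0.10. The causes were not tested. With the replicate number as a block, 10 genes were called on CHX in either genotype and 0 elsewhere, GPH1 in WT gaining its call (0.87, limma adjusted p = 0.0248). Correlations of same-numbered deviations over all features tested ran from -0.04 to 0.12. Replicate 1 stood above replicate 2 for each of the 10 genes in every group, except GLC3 in WT DMSO. The block gave a smaller SE for each gene but GLC3. Whether the number pairs the samples is not settled by these values. With 2 libraries a group and 4 reads at the least, small differences were not detectable.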
